A study of Mus musculus with 4 samples.

Results

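Many of the genes described here build and move the chromosomes of a dividing cell, and others, such as the transport kinesins, carry other cargo. The genes are the kinesins, the centromere proteins, the BUB proteins, the aurora kinases, and the SMC and condensin subunits. They were chosen by name, as all genes with a probe set whose single platform symbol begins with Kif and a digit or c, Cenp, Bub, Aurk, Ncap, or Smc and a digit from 1 to 6. The rule found 82 genes with 195 probe sets, out of 18193 genes with 34945 such probe sets. Where a gene had several probe sets, the brightest over the 4 arrays stood for it. Of the 82 genes, 71 were bright enough to be tested, and 11 were too dim.

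The series set bone marrow of mice with MN1 leukemia (2 arrays) against Gr1/Mac1 cells of healthy mice (2 arrays), all C57BL/6J. MN1 is a transcriptional coregulator. For the leukemic group, marrow was taken 4 days after 150 mg/kg 5-fluorouracil and stimulated for 48 hours with human interleukin-6, murine interleukin-3 and murine stem cell factor. MN1 was carried in by a retrovirus from irradiated GP+ E86 producer cells, with protamine sulfate, GFP-positive cells were sorted, and these were injected into syngeneic recipients given 750 cGy with a life-sparing dose of fresh marrow. The labels do not say that the leukemic marrow was sorted again at harvest, so host cells and donor cells without the virus may be in it, nor whether mice were pooled. The labels attach the same protocol text to every array. The Gr1/Mac1 cells are marrow cells positive for Gr1 and CD11b, antigens of granulocytes and monocytes, and are called mature here after the study's own design text. The study asked which normal progenitors MN1 can transform, and the progenitor profiles it drew on were not analysed here. There are no normal immature cells among these arrays, so leukemia and immaturity cannot be told apart. In RNA from bulk cells, fewer expressing cells and less RNA per cell cannot be told apart either.

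Kinesins are motor proteins that walk along microtubules. Those of the mitotic spindle slide, shorten or cross-link microtubules and carry chromosomes, and they are made mainly in dividing cells. Transport kinesins carry vesicles, organelles and other cargo in cells whether or not they divide. Centromere proteins mark the site on each chromosome where the kinetochore forms, BUB proteins and aurora kinases check and correct the attachment of chromosomes to the spindle, and condensins and cohesin are rings of SMC proteins that fold sister chromatids and hold them together. Many genes that peak in mitosis share promoter elements known as the cell cycle genes homology region, or CHR, and the CCAAT box, which are bound by the MuvB complex and by NF-Y.

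Promoter sequences of 72 of the 82 genes were found in the RefSeq table of build GRCm38.p6, as 81 windows that run from 250 bases before to 50 bases after each listed gene start; the others are Aurkb, Kif5a, Kif5b, Kif13b, Kif20a, Kif21b, Kif28, Kifc2, Kifc3 and Smc4. They were searched on both strands for the CHR letters TTTGAA or TTCGAA and for CCAAT. The windows of Cenpw, Cenpn, Bub1b and Kif23 are shown because these 4 are the mitotic, centromere and checkpoint genes that passed the test between the groups and hold both motifs. The window of Kif3a, the transport kinesin with the largest rise, is shown as a contrast and was chosen after its values were seen. Capitals mark CHR and CCAAT letters on either strand; in Cenpw the 2 motifs share 1 base. The windows lie at chr10:30200491-30200790 on the minus strand for Cenpw, chr8:116921490-116921789 on the plus strand for Cenpn, chr2:118597961-118598260 on the plus strand for Bub1b, chr9:61946750-61947049 on the minus strand for Kif23 and chr11:53567119-53567418 on the plus strand for Kif3a.
Cenpw: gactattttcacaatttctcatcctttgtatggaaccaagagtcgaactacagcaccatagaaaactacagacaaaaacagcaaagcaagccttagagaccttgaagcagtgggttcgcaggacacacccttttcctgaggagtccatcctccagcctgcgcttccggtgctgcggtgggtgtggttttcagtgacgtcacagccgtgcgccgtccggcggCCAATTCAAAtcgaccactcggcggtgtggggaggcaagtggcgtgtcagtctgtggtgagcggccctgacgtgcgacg
Cenpn: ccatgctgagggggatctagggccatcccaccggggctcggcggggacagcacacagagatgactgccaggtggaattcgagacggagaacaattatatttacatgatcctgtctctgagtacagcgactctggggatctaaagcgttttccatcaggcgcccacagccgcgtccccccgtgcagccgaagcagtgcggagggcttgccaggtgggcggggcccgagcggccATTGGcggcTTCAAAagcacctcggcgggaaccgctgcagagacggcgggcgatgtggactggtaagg
Bub1b: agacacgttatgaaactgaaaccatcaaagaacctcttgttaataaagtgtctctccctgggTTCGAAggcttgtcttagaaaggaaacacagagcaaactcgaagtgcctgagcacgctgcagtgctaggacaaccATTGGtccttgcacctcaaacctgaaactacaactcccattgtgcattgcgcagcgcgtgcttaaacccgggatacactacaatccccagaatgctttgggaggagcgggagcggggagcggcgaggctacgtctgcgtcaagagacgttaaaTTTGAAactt
Kif23: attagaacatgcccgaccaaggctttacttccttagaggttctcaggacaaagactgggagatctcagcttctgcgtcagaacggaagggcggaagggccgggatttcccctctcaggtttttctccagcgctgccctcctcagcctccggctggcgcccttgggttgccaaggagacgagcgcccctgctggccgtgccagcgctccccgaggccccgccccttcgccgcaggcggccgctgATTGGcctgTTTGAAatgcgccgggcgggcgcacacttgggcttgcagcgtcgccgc
Kif3a: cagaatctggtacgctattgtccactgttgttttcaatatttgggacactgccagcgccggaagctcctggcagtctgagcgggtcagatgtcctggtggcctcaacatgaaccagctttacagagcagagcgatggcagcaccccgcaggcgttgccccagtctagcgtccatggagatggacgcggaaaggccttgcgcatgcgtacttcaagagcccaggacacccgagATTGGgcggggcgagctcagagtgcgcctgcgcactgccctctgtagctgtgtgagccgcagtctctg

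In these letters Cenpw, Cenpn and Kif23 each hold 1 CHR match and 1 CCAAT match, Bub1b holds 2 CHR matches and 1 CCAAT match, and Kif3a holds 1 CCAAT match and no CHR match. Among mitotic kinesins 11 of 14 genes with a window had a CHR match (78.6%), and among condensins 6 of 7 (85.7%). Among transport kinesins 1 of 11 did (9.1%), and among centromere proteins 6 of 21 (28.6%). Over the whole table, 21.7% of genes and 19.2% of windows held one. A CCAAT match stood in 9 of 14 mitotic kinesins, 14 of 21 centromere proteins and 3 of 11 transport kinesins, against 41.1% of all genes and 37.4% of windows. Both motifs were found in 8 of 14 mitotic kinesins and in 0 of 11 transport kinesins, against 9.7% of all genes. They were also found in 3 of 8 ciliary and other kinesins (37.5%), Kif26b among them, and in 6 of 21 centromere proteins. Of the 14 CHR matches in mitotic kinesins, 10 were centred within 50 bases of the gene start. So were 4 of 7 in condensins, 4 of 6 in centromere proteins and 3 of 5 in BUB genes. In ciliary and other kinesins 2 of 5 were, and in cohesin and SMC5/6 ATPases 0 of 3. That share was not computed over all promoters, so these counts have no background to be read against. A match of letters is a description of the window and not a measured site.

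**Figure D1:**
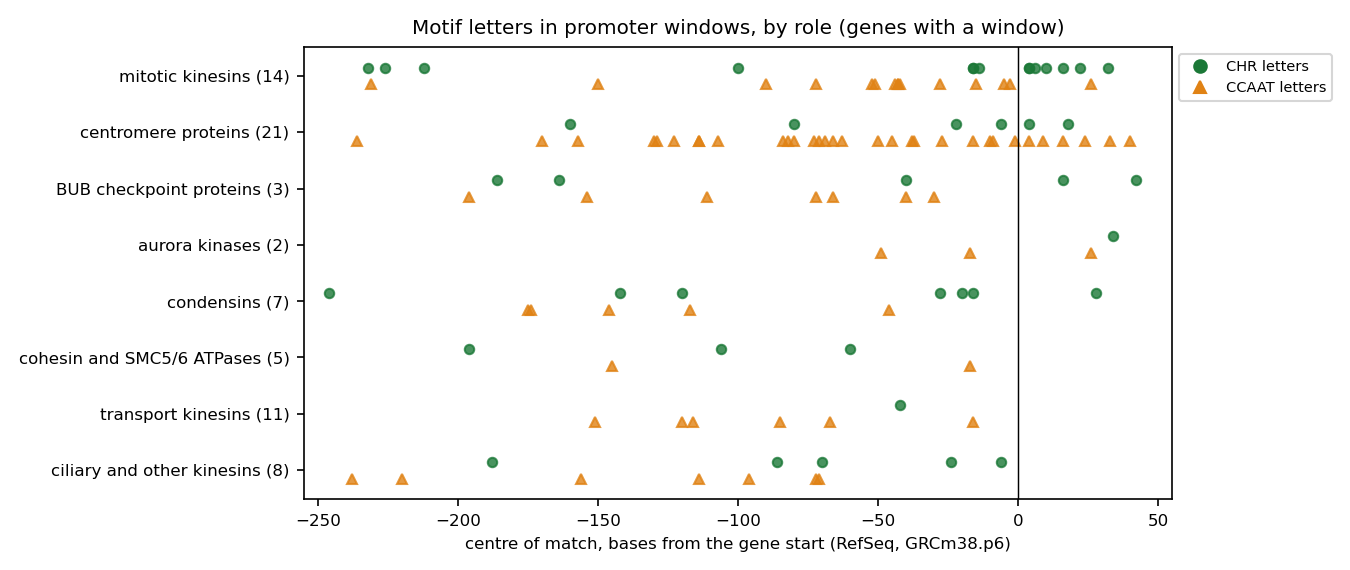
Positions of CHR letters (circles) and CCAAT letters (triangles) in the promoter windows, in bases from the gene start (x axis), for each role (y axis, with the number of genes that have a window). Of the CHR matches of mitotic kinesins, 10 of 14 lie within 50 bases of the start, and transport kinesins hold 1 CHR match. The share within 50 bases was not computed over all promoters.

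Expression was deposited as MAS5 signal, a linear intensity. Each log2 fold change is the leukemic mean less the mature mean of log2(signal + 16), so changes of dim genes are understated. A gene passed when its limma p, adjusted over all 12378 tested genes (Benjamini-Hochberg), was under 0.05. With 2 arrays a group, each p-value sets a difference of means against the spread between those arrays, which limma estimates partly from other genes. Intervals are 95% confidence intervals of the log2 fold change from the same fit. The arrays had median signals of 59.1 to 85.4. The 3′ to 5′ signal ratio of the beta-actin controls was 3.28 and 3.09 in leukemic arrays against 1.32 and 1.39 in mature ones, so this measure of RNA quality moved with the groups. Xist and the Y-linked Eif2s3y set mature replicate 2 apart: Eif2s3y read 4409 there and 2.51 to 3.01 in the other arrays. The Mn1 probe set read 17.7 and 92.6 in leukemic against 3.92 and 12.1 in mature arrays, below the filter, and whether it matches the retroviral MN1 was not tested.

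The labelled cell types were checked against marker lists. All 6 stem and progenitor markers were higher in leukemic marrow, with summed signals of 33655 and 40365 against 1017 and 1308, and so were all 4 tested erythroid markers (19057 and 31470 against 1411 and 1003). All 5 monocyte and macrophage markers were lower (8174 and 5604 against 50507 and 30515). Of the 9 mature neutrophil markers 5 were lower, Itgam (CD11b) and Csf3r among them, yet the summed signal was 325747 and 185824 in leukemic against 344565 and 281864 in mature arrays. Granulocyte precursor markers, genes of a dividing stage, summed to 65007 and 19374 in leukemic and 63895 and 44560 in mature arrays, and 1 of 6 was lower. Plasma cell markers were lower in 3 of 5, B lineage markers in 0 of 4, and T and NK markers were too dim to be tested, although no marker of any list read exactly 0. The part of these cell types, and of the 3′ to 5′ ratio, in the results was not tested.

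Most of these genes did not pass the test between leukemic marrow and mature myeloid cells. Of the 71 tested genes 11 were higher and 7 lower in leukemic marrow and 53 did not pass. Over all 12378 tested genes 43.4% passed, 27.5% higher and 15.9% lower; among these 71 genes 15.5% were higher and 9.86% lower. Both leukemic arrays lay above both mature arrays in 39 of the 71 and below them in 11, orders that 45.9% and 28.3% of all tested genes show. The median log2 fold change was 0.30 over the 71 genes and 0.28 over all tested genes. The numbers that passed depend on the scale between arrays: with every array at the same median 4 were higher and 8 lower, and scaled to the spiked hybridization controls, which moved the median of all genes to -1.02, 3 were higher and 45 lower. When leukemic replicate 1 was dropped the genes that passed numbered 7, and when leukemic replicate 2 was dropped they numbered 5. Under every alternative tried, 5 of the 18 kept their direction and their call: Kif26b, Cenpv and Kif3a higher, and Kif21b and Kif1b lower.

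**Figure D2:**
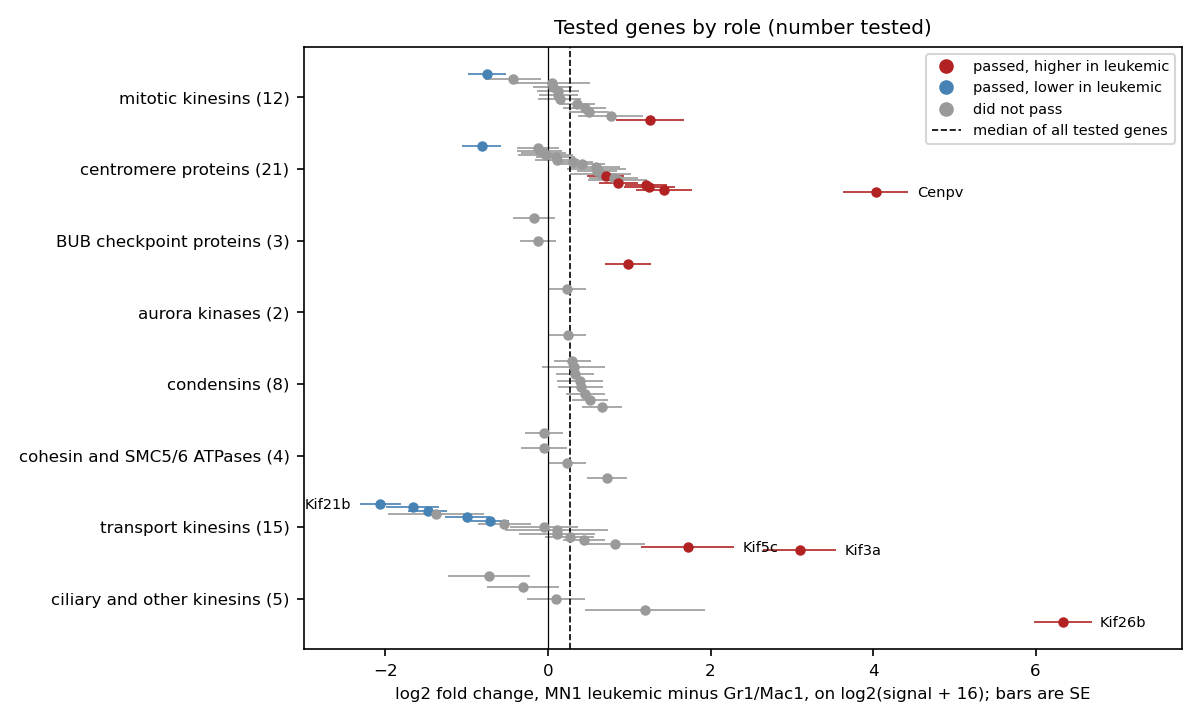
log2 fold change (x axis, leukemic minus mature, bars are SE) of the tested genes, grouped by role (y axis). The medians of mitotic kinesins (0.14) and condensins (0.40) lie near the median of all genes (dashed line, 0.28). Single mitotic kinesins spread from -0.75 to 1.26, and transport kinesins from -2.06 to 3.10.

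Of 15 mitotic kinesins 12 were tested, and Kif14, Kif15 and Kif2b were too dim. Kif18a was higher, Kif23 was lower, and 10 did not pass, with a median of 0.14; 16.7% passed, against 43.4% of all tested genes. Kif11, the motor that pushes spindle poles apart and is needed for a bipolar spindle, read 1390 and 1454 in leukemic and 1207 and 1542 in mature arrays. The ranges of the groups overlapped, and the interval of its log2 fold change ran from -0.51 to 0.63 (adjusted p = 0.87). Kif4, a chromokinesin that acts on chromosome arms and the anaphase midzone, read 725 and 776 against 698 and 674 (0.13, interval -0.45 to 0.70). Kif2a, a depolymerase of spindle poles, read 2003 and 2470 against 1748 and 2381. Its groups overlapped, as did those of Kif18b, a depolymerase of astral microtubules, at 790 and 910 against 879 and 667.

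Kif2c, which removes faulty attachments at centromeres, read 1717 and 1672 in leukemic and 1273 and 1375 in mature arrays (0.35, adjusted p = 0.24). Both leukemic arrays lay above both mature arrays, which was so in 6 of the 12 tested mitotic kinesins and in 45.9% of all tested genes. The same order held for the cytokinesis kinesins Kif20a, at 950 and 982 against 821 and 597 (0.45, interval -0.17 to 1.08), and Kif20b, at 1361 and 1320 against 1054 and 835 (0.51, interval -0.07 to 1.08). Neither passed. Kif22, a chromokinesin that pushes chromosomes to the spindle equator, varied more within groups than between them, at 4454 and 7328 against 3400 and 8957. Kifc1, a minus-end motor that clusters spindle poles, read 256 and 445 against 512 and 415, and its near-identical copy Kifc5b read 161 and 139 against 91.4 and 71.8; probes may not separate this pair.

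Kif18a, which shortens and steadies microtubules at the kinetochore, read 387 and 495 in leukemic and 116 and 257 in mature arrays. Its log2 fold change was 1.26 (SE 0.42, limma adjusted p = 0.047; range over alternatives 0.0124 to 0.996). This call was lost under 9 of 16 alternatives: when either leukemic replicate or mature replicate 1 was left out, with a pseudocount of 1, no filter, no variance trend, and all 3 other scalings. When each probe set was tested, 0 passed of the 1 Kif18a probe set and the 3 Kif23 probe sets above the filter. Kif23, the motor of the centralspindlin complex that acts in cytokinesis, read 1490 and 1292 against 2550 and 2164, lower in both leukemic arrays. Its log2 fold change was -0.75 (SE 0.23, limma adjusted p = 0.037; range over alternatives 5.2e-04 to 0.25), and the same 3 omissions ended the call, as did averaging its probe sets or fitting no variance trend.

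**Figure D3:**
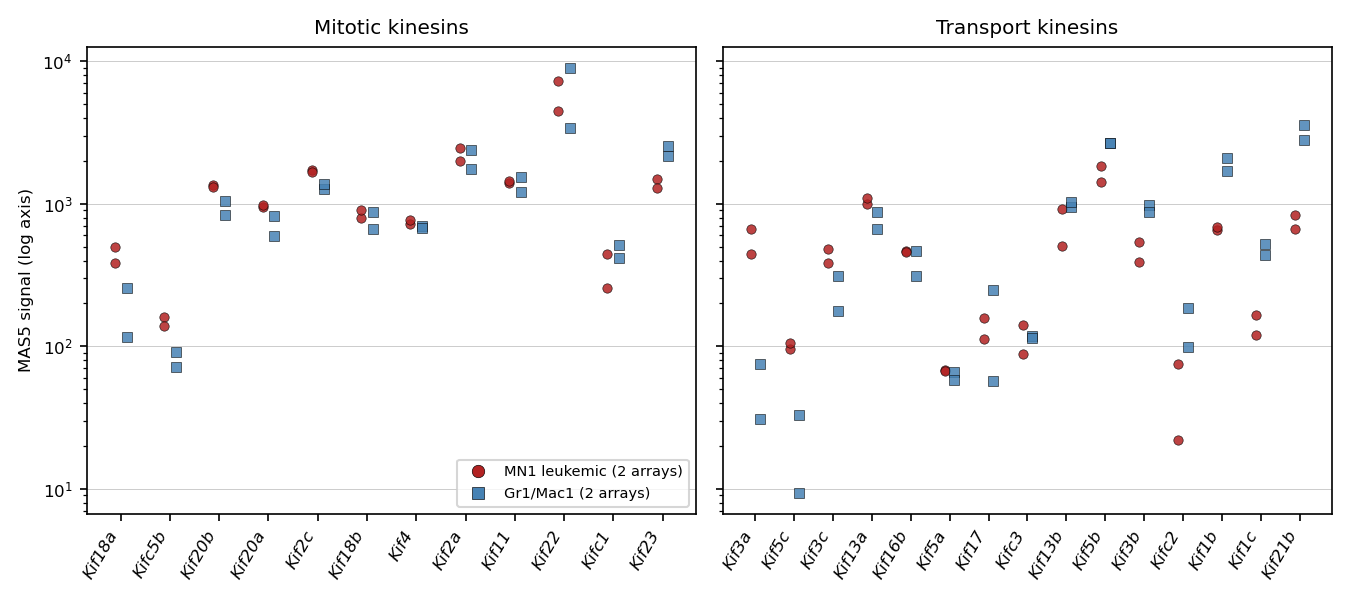
MAS5 signal (y axis, log) of each tested mitotic kinesin (left) and transport kinesin (right) in every array, ordered by log2 fold change. Leukemic arrays are circles and mature arrays squares; signals of Kif11, Kif4 and Kif2a lie close together, while those of Kif3a and Kif21b are far apart in opposite directions.

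Of 17 transport kinesins 15 were tested, of which 2 were higher (13.3%), 5 lower (33.3%) and 8 did not pass, with a median of -0.05. The share that passed, 46.7%, was near the 43.4% of all tested genes (27.5% higher, 15.9% lower). Kif21b, a motor known in neurons for cargo transport and for regulating microtubule growth, read 839 and 665 in leukemic and 2803 and 3574 in mature arrays. It was lower by -2.06 on the log2 scale (SE 0.25, limma adjusted p = 0.0014; range over alternatives 6.8e-05 to 0.016). Kif1b, a carrier of mitochondria and vesicle precursors, read 653 and 688 against 1707 and 2106 (-1.48, SE 0.24, limma adjusted p = 0.0033; range over alternatives 2.6e-04 to 0.034). In 6 of its 7 probe sets both leukemic values lay under both mature values, and 3 of them passed when each probe set was tested; the other one overlapped, at 250 and 322 against 173 and 478.

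Kif1c, which moves vesicles and is known for its role at podosomes of macrophages, read 165 and 119 in leukemic and 524 and 439 in mature arrays. Its log2 fold change was -1.67 (SE 0.33, limma adjusted p = 0.0066), and the call was lost without leukemic replicate 2 (adjusted p = 0.070; range over alternatives 5.1e-04 to 0.070). Kif5b, the widely expressed heavy chain of conventional kinesin, read 1417 and 1845 against 2656 and 2664 (-0.71, SE 0.24, limma adjusted p = 0.048). That call was close to the threshold and was lost under 12 of 16 alternatives (range 6.0e-04 to 0.69). The 5 other probe sets of the gene overlapped between the groups, and 0 of the 6 passed when each probe set was tested. Its neuronal relative Kif5c was dim, at 95.9 and 105 against 33.0 and 9.39 (fitted log2 fold change 1.72, SE 0.57, limma adjusted p = 0.047). The mature values lay below the filter, and the call was lost under 8 of 14 alternatives, among them both leukemic replicates and mature replicate 2 left out in turn (range over alternatives 0.023 to 0.20).

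Within kinesin-2, the motor best known for carrying cargo along cilia, the subunits went opposite ways. Kif3a, one motor subunit, read 447 and 664 in leukemic and 75.6 and 30.9 in mature arrays, a log2 fold change of 3.10 (SE 0.45, limma adjusted p = 0.0023; range over alternatives 9.8e-05 to 0.029). All 4 probe sets of Kif3a were higher and passed, with log2 fold changes of 2.52 to 3.65. Kifap3, the adaptor that joins the pair of motor subunits to cargo, was higher as well, from 181 and 124 to 1023 and 1073 (2.68, SE 0.30, limma adjusted p = 0.0010). Kif3b, the usual partner of Kif3a, was lower, at 541 and 393 against 985 and 883 (-0.99, SE 0.27, limma adjusted p = 0.025).

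In all 4 probe sets of Kif3b both leukemic values lay under both mature values, and 3 passed, with log2 fold changes of -2.04 to -0.99. Leaving out either leukemic replicate or mature replicate 1 ended the Kif3b call, as did the probe set that is used when those matching several transcripts are left out (range of adjusted p over alternatives 6.6e-04 to 0.22). Kif3c, which can replace Kif3b, read 382 and 481 against 176 and 311 and did not pass (0.83, interval -0.03 to 1.69). Its values over alternatives ran from -0.44 to 1.21. The direction of Kif3a, Kifap3 and Kif3b was the same under every scaling tried.

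**Figure D4:**
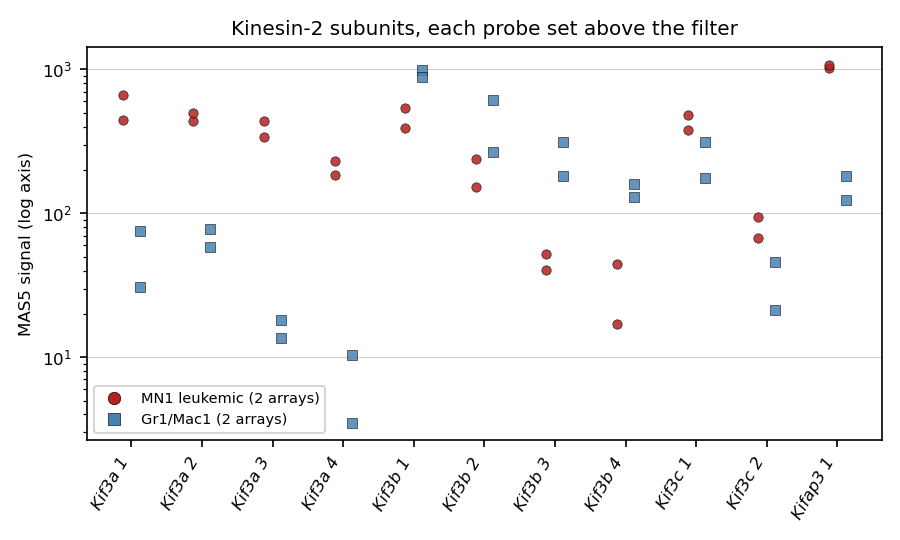
MAS5 signal (y axis, log) of each probe set above the filter for the kinesin-2 genes, numbered from brightest to dimmest within a gene. Leukemic arrays (circles) lie above mature arrays (squares) in all 4 probe sets of Kif3a and in Kifap3, and below them in all 4 probe sets of Kif3b.

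The remaining transport kinesins did not pass. Kif13b, a carrier of membrane proteins, read 913 and 503 against 952 and 1035 by its brightest probe set (-0.54, adjusted p = 0.23), but the mean of its probe sets passed as lower (-1.22, adjusted p = 0.013; range over alternatives 0.00324 to 0.862). Kif13a, which moves endosomes, read 991 and 1096 against 667 and 875, and Kif16b, a carrier of early endosomes, 469 and 456 against 312 and 467. Kifc2 was dim and uneven, at 74.9 and 22.0 against 99.6 and 186. It passed as lower with quantile normalization (-1.66, limma adjusted p = 0.0472) and at equal medians (-1.635, limma adjusted p = 0.0393). Scaled to the hybridization controls it also passed as lower (-2.42, limma adjusted p = 0.0105). Among kinesin light chains and adaptors, 1 of 7 tested genes, Kifap3, was higher and 0 were lower. Among 14 subunits of dynein and dynactin, the motor that walks the other way and its activator, the light chain gene Dynll2 was higher (1.51) and Dctn1 lower (-1.12); the Dctn1 value came to -0.05 with probe sets matching several transcripts left out, and Dynll2 to -0.96 with scaling to the hybridization controls. The Dctn1 call was also lost without either leukemic replicate and with the mean of its probe sets, and the Dynll2 call without leukemic replicate 1.

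Kif26b had the largest fitted difference of the 71 genes. This atypical kinesin, known from development of the mouse kidney, read 1480 and 1868 in leukemic arrays and 4.17 and 5.42 in mature arrays. Its log2 fold change was 6.34 (SE 0.35, limma adjusted p = 1.4e-04; range over alternatives 7.0e-08 to 0.0031) with the pseudocount of 16, and 8.17 with a pseudocount of 1. Kif26b had a single probe set. Kif26b and Kif5c cleared the filter on low signals through the leukemic arrays alone, since their mature signals all lay below its lowest kept mean of 47.6, so a difference was built into their being tested. With the mature arrays set at that floor, the difference of means was 26.4-fold for Kif26b and 1.83-fold for Kif5c on the signal + 16 scale as deposited. These 2 values leave out the spread between arrays, and the fitted interval of Kif5c began at a log2 fold change of 0.36. The fitted values are no exact sizes. The other ciliary and unclassed kinesins that were tested, Kif6, Kif9, Kif12 and Kif24, did not pass, with wide intervals that together reached from -1.92 to 2.94.

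The centromere proteins had a median log2 fold change of 0.60, against 0.28 over all tested genes. Of 21 tested genes 6 were higher (28.6%, against 27.5% of all genes), 1 was lower and 14 did not pass. With quantile normalization the median was 0.32, with 5 genes higher and 1 lower. At equal medians it was 0.28, with 2 higher and 1 lower. It turned to -0.68 when arrays were scaled to the hybridization controls, where 1 was higher and 10 were lower. Without leukemic replicate 1 or 2 the median was 0.67 or 0.52, and without mature replicate 1 or 2 it was 0.505 or 0.34. Cenpv, a protein known from human cells at centromeres and at the anaphase midzone, read 1686 and 2295 in leukemic and 158 and 68.1 in mature arrays. Its log2 fold change of 4.03 (SE 0.40, limma adjusted p = 7.1e-04; range over alternatives 1.6e-06 to 0.0078) was the highest among the centromere proteins, the next being 1.43.

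The other 5 that rose belong to the constitutive network that sits on centromeric chromatin throughout the cell cycle. Cenpn, which recognises the nucleosome that carries CENP-A, read 1828 and 1973 against 1054 and 595 (1.24, SE 0.31, limma adjusted p = 0.018). Cenpw, a histone-fold partner of CENP-T, read 554 and 552 against 148 and 256 (1.43, SE 0.34, limma adjusted p = 0.015). Cenpk, of the CENP-H/I/K group, read 1353 and 1758 against 603 and 718 (1.21, SE 0.26, limma adjusted p = 0.0093). In each of these genes both leukemic arrays lay above both mature arrays, and the second probe sets of Cenpn and Cenpw also passed. The other probe sets of Cenpk did not pass (0.44 and 0.54), nor did the mean of its probe sets (0.73, limma adjusted p = 0.0655).

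Cenpp and Cenpq, of the CENP-O group, rose by less: Cenpp read 876 and 931 against 474 and 502 (0.87, limma adjusted p = 0.027) and Cenpq 1599 and 1689 against 992 and 1007 (0.71, limma adjusted p = 0.040). The calls of Cenpn, Cenpw, Cenpp and Cenpq were lost without either leukemic replicate, that of Cenpk without leukemic replicate 2, and the values of all but Cenpw turned below 0 with scaling to the hybridization controls (-0.61 to -0.07). The calls of Cenpk, Cenpn, Cenpp and Cenpq were also lost at equal medians, and those of Cenpp and Cenpq with quantile normalization. When each probe set was tested, the 1 probe set of Cenpq did not pass. In all, 3 to 7 of 16 alternatives ended each of these 5 calls. For these 5 genes the range of adjusted p over alternatives reached 0.86, in Cenpn. Other members of the same groups did not pass: Cenph (0.81), Cenpx (0.65), Cenpm (0.60), Cenps (0.59), Cenpo (0.42), Cenpt (0.31), Cenpu (0.11), Cenpi (-0.05) and Cenpl (-0.12). Cenph was at 401 and 364 against 189 and 236, apart between the groups, as were Cenpx, Cenpm, Cenps, Cenpo and Cenpt. Cenpi, Cenpu and Cenpl overlapped. Both leukemic arrays lay above both mature arrays in 14 of the 21 tested centromere proteins and in 45.9% of all tested genes. Over alternatives the values of Cenpx ran from -0.64 to 1.17 and those of Cenpm from -0.68 to 1.03. Cenph has 1 probe set, so averaging the probe sets of each gene left its value at 0.81. It passed as higher in that setting (limma adjusted p = 0.0456), in which only values of other genes changed. The values of Cenph over alternatives ran from -0.45 to 0.96.

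Cenpa, the histone H3 variant that defines the centromere, read 4756 and 5804 in leukemic and 3888 and 3083 in mature arrays. It did not pass (0.60, interval 0.02 to 1.18, limma adjusted p = 0.089), but did so with quantile normalization (0.77, limma adjusted p = 0.0386) and when mature replicate 1 was left out (0.77, limma adjusted p = 0.0468), against a range over alternatives of 0.0386 to 0.89. Scaling to the hybridization controls turned it to -0.73. Cenpc1, which links CENP-A chromatin to the kinetochore, read 1143 and 1307 against 464 and 953 (0.86, adjusted p = 0.096). It passed as higher with the replicate block (limma adjusted p = 0.042), and its values over alternatives ran from -0.45 to 1.37. Of the kinetochore proteins loaded in mitosis, Cenpe, a kinesin that moves chromosomes to the equator, read 856 and 802 against 1084 and 730, and Cenpf 2182 and 1797 against 1694 and 2031. Both overlapped, with intervals of -0.76 to 0.56 and -0.47 to 0.66. Cenpb, which binds a DNA box in centromeric repeats, also overlapped, at 170 and 190 against 195 and 173.

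Cenpj was the only centromere protein by name to pass as lower. It is known for building centrioles rather than centromeres, and read 621 and 712 in leukemic and 1204 and 1161 in mature arrays (-0.82, SE 0.24, limma adjusted p = 0.030). Leaving out either leukemic replicate or the variance trend ended the call (range over alternatives 5.2e-04 to 0.22). Among the listed factors that load CENP-A, 2 were tested, and Oip5 was higher (1.76, limma adjusted p = 0.0069). The Oip5 call was lost without leukemic replicate 1 (adjusted p = 0.0605) or 2 (0.0741) and with scaling to the hybridization controls (0.56, adjusted p = 0.207, the highest over its alternatives). In the outer kinetochore 1 of 13 tested genes passed, Zwint, at 4141 and 5230 against 1750 and 1495 (1.52, limma adjusted p = 0.0030); 27.5% of all tested genes were higher. Scaling to the hybridization controls ended the Zwint call (0.19, adjusted p = 0.506, the highest over its alternatives). The microtubule-binding NDC80 subunits Ndc80 (-0.29), Nuf2 (0.12), Spc24 (0.60) and Spc25 (-0.38) did not pass.

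**Figure D5:**
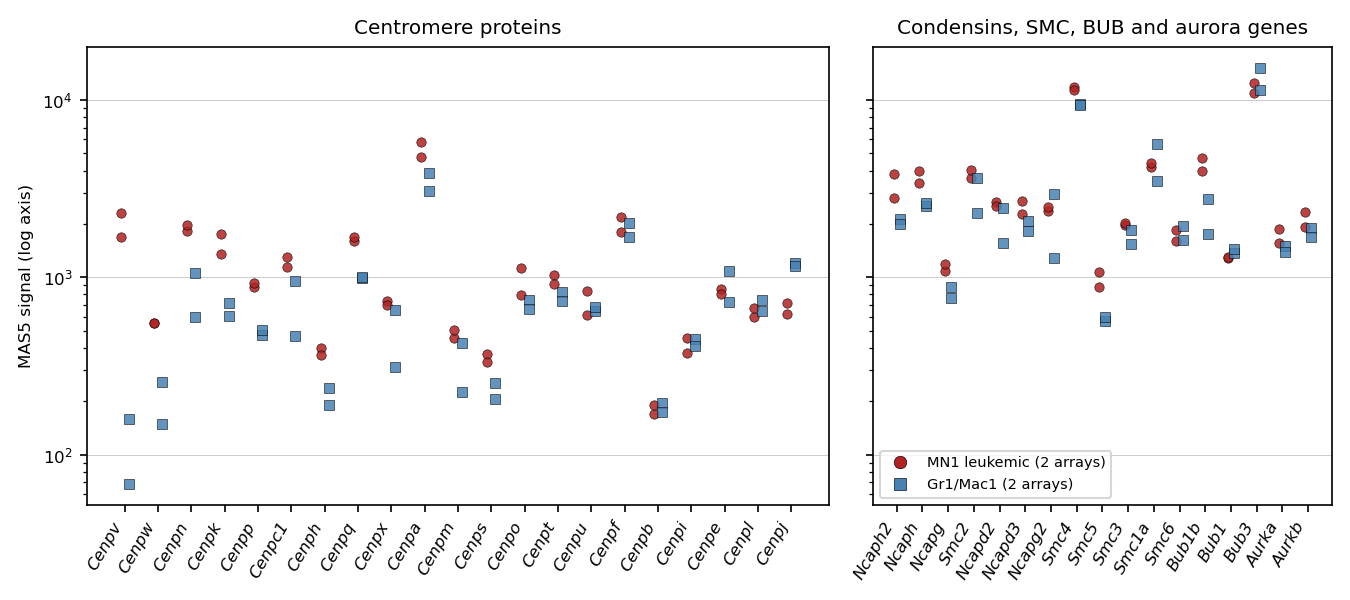
MAS5 signal (y axis, log) in every array of the tested centromere proteins (left) and of the condensin, cohesin, SMC5/6, BUB and aurora genes (right), ordered by log2 fold change within each role. Circles (leukemic) and squares (mature) are close for most genes, and farthest apart for Cenpv, where leukemic arrays read 1686 and 2295 and mature arrays 158 and 68.1.

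Of the checkpoint genes, Bub1b, which encodes BUBR1 of the mitotic checkpoint complex, was higher, at 4729 and 3994 in leukemic and 2755 and 1745 in mature arrays. Its log2 fold change was 0.98 (SE 0.28, limma adjusted p = 0.029; range over alternatives 0.0098 to 0.33), and a second probe set passed too (0.83). The call was lost under 6 of 16 alternatives: without either leukemic replicate or mature replicate 2, at equal medians (0.66), with no variance trend, and with scaling to the hybridization controls, where the value turned to -0.34. Bub1, the kinetochore kinase that recruits the checkpoint, read 1281 and 1308 against 1372 and 1451 (-0.12, interval -0.65 to 0.41). Bub3, the adaptor of both, was among the brightest of the 71 genes and overlapped, at 12415 and 10977 against 15204 and 11447.

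Among the other checkpoint genes 2 of 9 tested were higher (22.2%, near the 27.5% of all tested genes) and 0 lower. Mad2l1, the checkpoint protein that restrains CDC20, rose from 2196 and 2089 to 10226 and 6771 (1.95, limma adjusted p = 0.0019), and Zwilch, of the complex that brings dynein to kinetochores, rose from 636 and 862 to 2290 and 2497 (1.67, limma adjusted p = 0.0026). With scaling to the hybridization controls both calls were lost, Mad2l1 at 0.62 (adjusted p = 0.0835, the highest over its alternatives) and Zwilch at 0.36 (adjusted p = 0.254, likewise). The target Cdc20 read 7030 and 6377 against 6449 and 5504. The aurora kinases did not pass. Aurka, the kinase of spindle poles, read 1862 and 1568 against 1494 and 1393 (interval -0.30 to 0.79), and Aurkb, the kinase of the chromosomal passenger complex, read 2327 and 1931 against 1892 and 1699 (interval -0.31 to 0.79). Of their 5 tested partners, Incenp, Birc5, Cdca8, Tpx2 and Bora, 0 passed in limma, and 1 had an unadjusted p under 0.05.

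All 8 condensin genes were tested and 0 passed in limma, in either direction, while 1 had an unadjusted p under 0.05. Their log2 fold changes lay between 0.30 and 0.66, with a median of 0.40 that was 0.08 with arrays at equal medians and -0.92 with scaling to the hybridization controls, where 6 were lower. Without mature replicate 1 there was 1 higher, and without mature replicate 2 there were 2. Their intervals together reached from -0.60 to 1.25, so differences within that range were not resolved by 2 arrays a group. Smc4, the ATPase shared by condensins I and II, read 11798 and 11330 in leukemic and 9461 and 9323 in mature arrays (0.30, adjusted p = 0.33). A dimmer Smc4 probe set, at 8581 and 6399 against 1753 and 4108, passed as higher when each probe set was tested (1.46). Its partner Smc2 read 3629 and 4029 against 2303 and 3610 (0.41, adjusted p = 0.28), but the mean of its 5 probe sets passed as higher (1.17, adjusted p = 0.0265; range over alternatives 0.0265 to 0.864).

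Among the subunits of condensin I, Ncaph read 3410 and 4002 against 2523 and 2614 (0.52), Ncapg 1084 and 1189 against 880 and 767 (0.46), and Ncapd2 2654 and 2513 against 2474 and 1554 (0.39). Of condensin II, Ncaph2 read 2795 and 3847 against 2121 and 2010 (0.66, adjusted p = 0.068), Ncapd3 2268 and 2688 against 1831 and 2089 (0.33), and Ncapg2 2367 and 2485 against 1286 and 2943 (0.31). In 7 of the 8 genes both leukemic arrays lay above both mature arrays, and in Ncapg2 they overlapped. Over all tested genes 45.9% had that order upward.

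The cohesin and SMC5/6 ATPases did not pass either. Smc1a, of the cohesin ring, read 4187 and 4419 against 5660 and 3483 by its brightest probe set, and 1 of its 2 dimmer ones passed as higher (1.27, at 631 and 564 against 161 and 346). Smc3, its partner, read 1964 and 2034 against 1857 and 1546 (interval -0.31 to 0.78). Smc5, of the repair complex SMC5/6, was closest to the threshold, at 882 and 1077 against 568 and 599 (0.73, adjusted p = 0.054), and passed with a stricter filter that dropped the dimmest 60% of probe sets (limma adjusted p = 0.0424; alternatives ranged from that to 0.384). Smc6, its partner, overlapped at 1604 and 1844 against 1937 and 1631. Of 14 tested partners of cohesin 1 was higher, Pds5b (0.96), a regulator of cohesin release, and of 4 tested SMC5/6 partners Nsmce3 (0.94) was higher. Pds5b turned to -0.56 and Nsmce3 to -0.35 with scaling to the hybridization controls, and both calls were lost at equal medians and without either leukemic replicate, that of Nsmce3 also without mature replicate 2, with quantile normalization and with no variance trend.

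Of 15 other mitotic genes tested, general markers of division among them, 1 was higher, Ect2 (1.21, limma adjusted p = 0.049), a call lost under 10 of 15 alternatives, among them either leukemic replicate or mature replicate 1 left out and all 3 other scalings. Mki67, the Ki-67 antigen of cycling cells, read 15597 and 13553 in leukemic and 13746 and 11422 in mature arrays, and its groups overlapped. Top2a, the topoisomerase that untangles sister chromatids, read 9286 and 7346 against 6849 and 7097, and Plk1, a master kinase of mitosis, 1096 and 1135 against 1263 and 889. In all, 9 of 83 tested partner genes were higher (10.8%, against 27.5% of all tested genes) and 1 lower (1.2%, against 15.9%), with a median of 0.18.

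The 11 genes too dim for the test were Aurkc, Kif1a, Kif2b, Kif7, Kif14, Kif15, Kif21a, Kif26a, Kif27, Kif28 and Smc1b, with signals of 2.36 to 118. Kif7 lay just outside the filter, with a mean signal of 44.0, and the antisense gene Smc2os, which the rule takes in by name and which did not pass, just inside it at 49.5. Kif27, a kinesin of motile cilia, was unlike the rest in that it read 58.8 and 48.3 in leukemic and 2.41 and 2.36 in mature arrays, and it passed as higher when no filter was used (1.92, limma adjusted p = 0.015). Without the filter 10 of 82 genes were higher and 6 lower, against 17% and 10.1% of all 18193 genes. Smc1b, the cohesin ATPase of meiosis, and Kif2b were among the dimmest, Kif2b at 6.44 to 8.74.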

How the data were processed

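Single-colour arrays of 4 marrow RNA samples were deposited as 1 table of 45101 probe sets in MAS5 signal, a linear intensity. Per the submitters' processing notes, the authors used MAS5 and GCOS 1.3.0, with settings not given in the sources used here. Every column is a sample of the series. Gene symbols came from the platform annotation, and all 82 gene IDs were found in the RefSeq table with 0 symbols changed. The trimmed mean signal is the same in all arrays, so arrays were used as scaled.

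Values were taken as log2(signal + 16). Controls (64 probe sets) and the dimmest 40% of the others by mean were dropped, so that the lowest kept mean was 47.6, and the brightest probe set stood for a gene. The comparison used R 4.3.3 and limma 3.58.1 (variance trend, two-sided), tested first on simulated data. Each of the 2 groups has 2 arrays, called biological replicates in the design text, so precision rests on 2 residual degrees of freedom (6.9 after moderation). An exact permutation test of 2 against 2 arrays could give no p below 0.33.

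The genes and gene lists were chosen with earlier results of these data known. All tested genes of the name rule were eligible to be named, with up to 3 passing partner genes per list. Figures used matplotlib 3.10.9. The alternatives were pseudocounts of 1 and 64, no filter, the lowest 60% left out, quantile normalization, equal medians, scaling by each group's mean of 18 hybridization controls, all probe sets of a gene averaged, no probe sets with suffixes _x_at, _s_at or _a_at, other variance models, a replicate block, a 2-fold minimum and each array left out.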

Additional observations from a re-analysis of the deposited data

How the results depend on the processing

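The counts of changed genes held within 1.5 times under most alternatives, and the exceptions follow. With arrays left out in turn, 5 to 20 of the genes described here passed (3 to 15 higher, 2 to 6 lower), and over all genes 2575 to 5441 (1544 to 3571 higher, 1031 to 1908 lower); the lone array of a group was then assumed to vary like the other group, and fewer arrays remained. At equal medians 4 genes were higher here and 2250 over all genes (2307 lower, against 3403 higher and 1972 lower). With scaling to the hybridization controls 48 passed here, 3 higher and 45 lower, and over all genes 1029 were higher and 6104 lower; the median of all genes moved from 0.28 to -1.02, by the construction of that scaling. The controls read 11918 and 8950 in leukemic and 4044 and 4167 in mature arrays, and which scale is right was not tested. Without a variance trend 4 were lower, the cause of which was not tested. With a 2-fold minimum 11 passed, 3 of them lower, since smaller changes are then left out. The replicate block gave 16 genes here (10 higher, 6 lower) and 5562 over all genes. Nothing in the labels pairs equal replicate numbers, and deviations of same-numbered arrays correlated at -0.03 across 12378 genes.

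Scaling to the hybridization controls was the single setting that turned called values to the other sign, or called a gene in the direction opposite to its main value. The log2 fold changes became -1.07 for Aurka, -1.08 for Aurkb, -0.34 for Bub1b, -0.73 for Cenpa, -1.23 for Cenpf, -0.10 for Cenpk, -0.069 for Cenpn, -0.88 for Cenpo, -0.43 for Cenpp, -0.61 for Cenpq, -0.99 for Cenpt, -1.19 for Cenpu, -1.26 for Kif11, -0.87 for Kif13a, -1.01 for Kif16b, -1.16 for Kif18b, -0.85 for Kif20a, -0.80 for Kif20b, -1.16 for Kif24, -1.20 for Kif2a, -0.96 for Kif2c, -1.17 for Kif4, -0.93 for Ncapd2, -0.99 for Ncapd3, -0.85 for Ncapg, -0.80 for Ncaph, -0.92 for Smc2, -1.08 for Smc3, -1.03 for Smc4, -0.56 for Pds5b, -0.35 for Nsmce3, -0.96 for Dynll2 and -0.11 for Ect2. Among genes called neither way, the sign changed in 17 at equal medians, 13 with that scaling, 10 with quantile normalization, 9 with the mean of probe sets, 2 with the suffixes left out and 2 to 13 with an array left out. With 2 arrays a group, dim genes such as Kif5c have only a rough value.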
